A study of Mus musculus with 3 samples.

Results

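The cells described here are the 139 of 12421 cells that carry the number 11 among the 13 deposited clusters, whose leading genes are those of mural cells, the contractile and supporting cells on the outside of blood vessels. Members were taken by cluster number alone, in both conditions, and their UMIs (unique molecular identifiers, 1 per captured RNA molecule) were summed per brain. The study used CITE-seq, a droplet assay that sequences each cell's RNA together with DNA barcodes on surface antibodies, to compare naive brains with brains carrying metastases. All mice were female C57BL/6 of 2 to 3 months. The naive brains had no tumour, and the others held metastases of E0771, a mouse mammary carcinoma line, grown for about 2 weeks after injection into the carotid artery. Every brain was perfused, digested with a papain-based kit and put through a Percoll gradient that enriches immune cells, so the vessel cells are those that came through that step, and the labels describe the material as 1 brain hemisphere. Per the design text each brain was marked by its own hashing antibody and all were run as 1 pool. That text counts 6 samples in the pool, but 4 hashing antibodies occur in the files, called here naive 1, naive 2, metastasis 1 and metastasis 2. Nothing beyond them says that these are separate animals or preparation days, and a p-value here reflects the spread among 4 cell suspensions, which may be technical.

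Mural cells come in 2 main kinds. Smooth muscle cells wrap arteries and arterioles and contract through smooth muscle actin and myosin, while pericytes sit on capillaries within the basement membrane and are held there by signalling through the receptor Pdgfrb. Both kinds use Notch3, and pericytes of the brain are known for Rgs5, Vtn, Higd1b and the potassium channel genes Kcnj8 and Abcc9. In smooth muscle many contractile genes are switched on by serum response factor with its partner myocardin, through a promoter motif called the CArG box.

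Naive 1 gave 48 members, naive 2 gave 27, metastasis 1 gave 27 and metastasis 2 gave 37. The summed depth of the members was 55752 UMIs in naive 1, 26010 in naive 2, 265453 in metastasis 1 and 429285 in metastasis 2. The median member held 814 and 871 UMIs in the naive brains but 9974 and 10370 in the brains with metastases. Endothelial-like cells of cluster 6, the other vessel wall cells of the series, had medians of 717, 752.5, 949 and 1571 UMIs in the same order of brains. The depth of the mural members was split: 47 of 48 and all 27 naive members held under 4000 UMIs, against 6 of 27 and 7 of 37 with metastases. No cell barcode occurred more than once. Cells with tags of several brains are not among those analysed, but droplets holding more than 1 cell of the same brain carry a single tag, and no doublet caller was run here.

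Markers on the carcinoma list moved with that depth. The 10 markers, genes of mammary and other epithelial cells, summed to 0.5 and 0.148 UMIs per member in the naive brains and to 9.04 and 11.3 with metastases. These UMIs came from Krt8, a keratin (8, 1, 118 and 285 UMIs), and Wfdc2, a secreted epithelial protein (15, 3, 126 and 134), apart from 1 UMI of Lcn2 in naive 1. Krt18, Krt7, Epcam, Krt19, Cldn7, Cldn4 and Cdh1 were at 0 in the members. As CPM (UMIs scaled so that each brain's summed members have the same total) they stood at 430, 154, 919 and 976. In the 5 large clusters of the series (0, 1, 3, 4 and 5), which held Krt8 at 428 and 674 CPM, Wfdc2 at 540 and 351 CPM and Epcam at 0.0242 and 0.154 CPM with metastases, the list stood at 972 and 1030 CPM, and the median cell held 10080 and 11052 UMIs. All 21 and 30 members of 4000 UMIs or more in the brains with metastases held at least 1 carcinoma-marker UMI. The only naive member of that depth, in naive 1, held 14722 UMIs, or 26.4% of its brain's summed members, with 10 carcinoma-marker and 55 smooth muscle UMIs. Its hashing margin, a score of how clearly 1 tag leads, was 0.152, against a median of 2.14 in the other 47 members of naive 1. Cells of the large clusters had median margins of 0.407 in naive 1 and 1.47 in naive 2. Whether this member belongs to naive 1 was not tested. Acta2 of naive 1 stood at 5632 CPM with it and at 7434 CPM without it. The condition differences of the markers and the mural gene lists are therefore given on 2 scales, CPM and UMIs per cell, and for the members under 4000 UMIs where these could be tested. In these shallower members the carcinoma markers stood at 341, 154, 457 and 155 CPM. The part of carcinoma-cell RNA in the differences beyond these values was not tested.

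**Figure D1:**
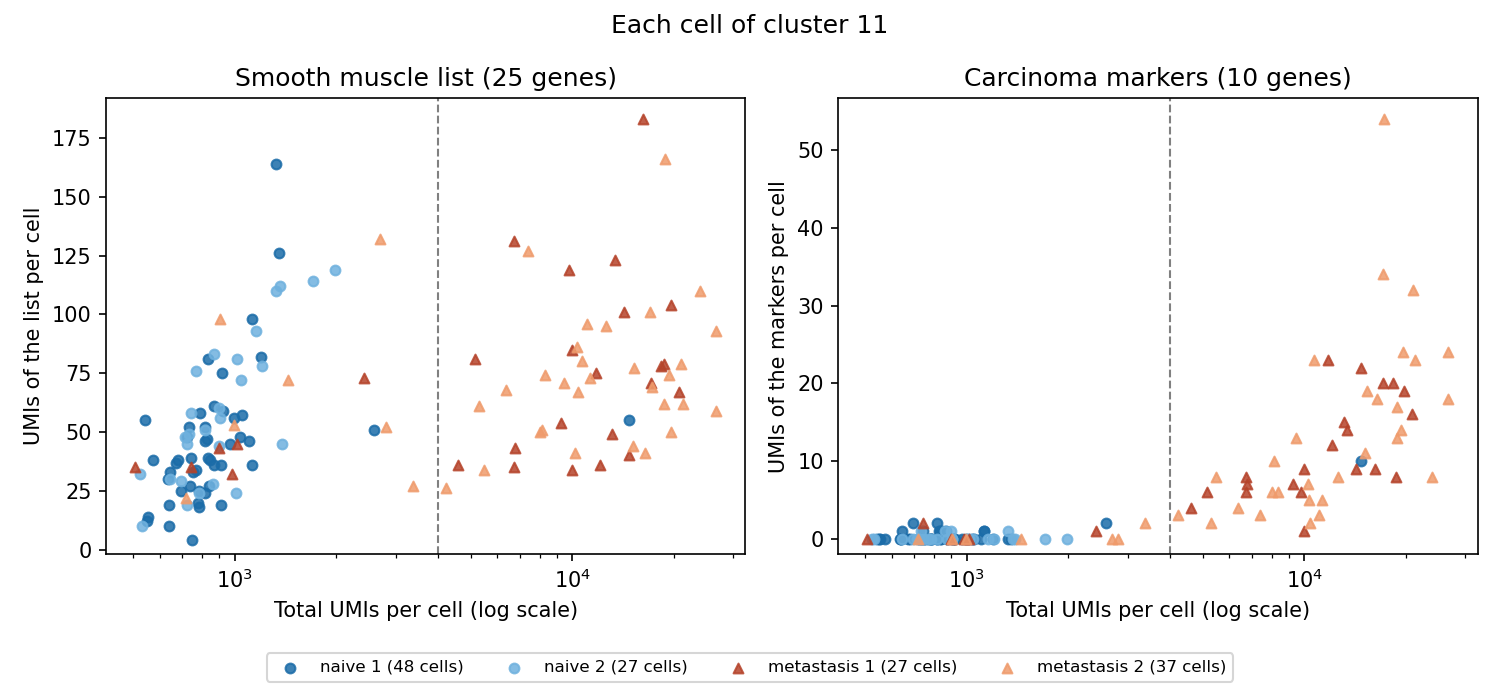
Each point is 1 member of cluster 11. The x axis is its total UMIs on a log scale, the y axis its UMIs of the smooth muscle list (left) or of the carcinoma markers (right), colours mark the 4 brains and the dashed line marks 4000 UMIs. A single naive cell lies right of that line, against 21 and 30 cells of the brains with metastases, and smooth muscle UMIs occur on both sides of it.

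The 5 markers of the cluster were present in all brains. Acta2, which encodes smooth muscle actin, gave 314 UMIs in naive 1, 301 in naive 2, 295 in metastasis 1 and 386 in metastasis 2. Tagln, an actin-binding protein of smooth muscle, gave 371, 305, 287 and 373 UMIs, and Myl9, a regulatory myosin light chain, gave 254, 208, 181 and 245. Myh11, the smooth muscle myosin heavy chain, gave 29, 32, 46 and 26. Rgs5, a regulator of G protein signalling that is high in pericytes and also found in smooth muscle, gave 40, 21, 34 and 22. The first 3 of these genes thus supplied most marker UMIs in every brain. Acta2 was found in 91.7%, 100%, 96.3% and 100% of members and Rgs5 in 31.2%, 37.0%, 25.9% and 29.7%. In the choroid plexus-like cells of cluster 9, which should lack these genes and had medians between 4574.5 and 5575.5 UMIs, Acta2 was found in 0% to 3.09% of cells and Rgs5 in 0% to 2.50%. With each cell thinned to 500 UMIs, which left out no cell, Acta2 was found in 87.5%, 100%, 59.3% and 40.5% of members.

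Levels of these genes in other clusters are given without a test, because the clusters were made from the same genes. In the brains with metastases the highest level of each marker outside cluster 11 was in cluster 6 of metastasis 2. Acta2 stood there at 238 CPM, below its lowest level of 899 CPM in cluster 11, and Tagln stood at 229 CPM against a lowest level of 869. Rgs5 was the exception, at 56.6 CPM there and 51.2 CPM in cluster 11 of metastasis 2. In the 5 large clusters of these brains Acta2 ranged from 9.89 to 82.6 CPM and Tagln from 0.262 to 12.2 CPM. In the naive brains, where those clusters hold few UMIs, Acta2 reached 1218 CPM from 4 UMIs (cluster 5 of naive 2) and Tagln 29.7 CPM from 1 UMI (cluster 1 of naive 2). Cluster 12 of naive 2 held Tagln at 170 CPM from 14 UMIs. Rgs5 stood at 132 and 200 CPM in cluster 6 of the naive brains. That is below its 717 and 807 CPM in cluster 11 there, but above its 128 and 51.2 CPM in cluster 11 with metastases. Immune surface tags were low on the members. The median CD45 tag count, which marks white blood cells, was 1, 0, 1 and 2 in the 4 brains, against 13, 32, 73 and 62 in the microglia-like cells of cluster 12. CD11b, a myeloid integrin, had medians of 1, 1, 3 and 2 on the members and 57.5, 77, 78.5 and 46 on cluster 12. In members under 4000 UMIs the CD45 medians were 1, 0, 1 and 9. There 1 of 47, 1 of 27, 2 of 6 and 3 of 7 members held 10 or more CD45 tags. For CD11b the counts were 3 of 47, 1 of 27, 2 of 6 and 2 of 7.

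The promoters of 3 markers show the motif background of a contractile and a pericyte-associated gene. The sequences are RefSeq's for build GRCm38.p6, each covering the 250 bases before the gene's start, 5′ to 3′ on the gene's strand. Acta2 lies at chr19:34255374-34255623 on the minus strand, Myl9 at chr2:156775214-156775463 on the plus strand and Rgs5 at chr1:169655251-169655500 on the plus strand. Capitals mark CArG boxes, near-CArG boxes in which 1 of the 6 central bases is C or G, and GC boxes (GGGCGG), each searched on both strands.
Acta2: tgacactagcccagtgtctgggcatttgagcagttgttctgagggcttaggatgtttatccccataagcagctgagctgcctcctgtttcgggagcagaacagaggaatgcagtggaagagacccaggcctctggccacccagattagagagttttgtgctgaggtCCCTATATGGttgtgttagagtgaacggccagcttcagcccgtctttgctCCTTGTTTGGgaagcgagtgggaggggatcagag
Myl9: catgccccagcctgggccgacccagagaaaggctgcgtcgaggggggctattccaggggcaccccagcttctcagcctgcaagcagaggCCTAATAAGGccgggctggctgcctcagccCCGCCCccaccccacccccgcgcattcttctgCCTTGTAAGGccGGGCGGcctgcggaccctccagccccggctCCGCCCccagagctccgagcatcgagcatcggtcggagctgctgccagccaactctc
Rgs5: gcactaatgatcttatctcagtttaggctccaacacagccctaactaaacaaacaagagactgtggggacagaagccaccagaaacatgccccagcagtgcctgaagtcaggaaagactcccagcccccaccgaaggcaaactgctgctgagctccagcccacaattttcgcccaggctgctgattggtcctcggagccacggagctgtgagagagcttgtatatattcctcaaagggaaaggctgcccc

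In these windows Myl9 held a CArG box whose first base lies 161 bases before the start and a near-CArG box 99 bases before it. Acta2 held near-CArG boxes 84 and 34 bases before the start, and Rgs5 held none of the motifs searched. Of the 32851 mouse promoter windows in the table, 1.47% held a CArG box, 7.24% a near-CArG box, 12.4% a TATA box (TATAAA) and 32.7% a GC box. The table had windows for 47 of the 64 genes on the smooth muscle, pericyte and shared mural lists, and not for Tagln, Myh11, Pdgfrb or Higd1b. Among the 21 smooth muscle genes with a window, 2 held a CArG box (Myl9 and Cnn2) and 4 a near-CArG box (Acta2, Myl9, Pcp4l1 and Crip1). Among the 18 pericyte genes with a window, 0 held a CArG box and 2 a near-CArG box (Ggt1 and Gper1). A motif match is a description of the letters, and the near-CArG search was added after the sequences had been seen.

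Smooth muscle genes outweighed pericyte genes in every brain. The list of 25 smooth muscle contractile and cytoskeletal genes gave 2173 UMIs in naive 1, 1590 in naive 2, 1887 in metastasis 1 and 2643 in metastasis 2. The list of 24 pericyte genes gave 165, 98, 131 and 170. That is 13.2, 16.2, 14.4 and 15.5 smooth muscle UMIs for each pericyte UMI, and the conditions overlap in this ratio. In members under 4000 UMIs it was 13.3, 16.2, 5.16 and 17.5. Without the 5 markers the smooth muscle list stood at 21614, 28604, 4061 and 3757 CPM. The pericyte list then stood at 2242, 2960, 365 and 345 CPM. On those genes the ratio was lower in every brain, and it was higher with metastases without overlap. Both lists hold genes also found in the large clusters with metastases, such as Cald1 (366 and 376 CPM), Crip1 (226 and 406) and Slc19a1 (39.1 and 44.6). Others were near 0 there, such as Tagln (2.03 and 1.29) and Rgs5 (0.363 and 0.174). In the brains with metastases the ratio need not reflect mural cells alone. Of the smooth muscle genes, 23 of 25 had a UMI in every brain and 0 had none at all. Of the pericyte genes, 11 of 24 had a UMI in every brain, 12 had under 10 UMIs over all brains, and Abcc9, Atp13a5 and Ggt1 had none. Kcnj8, which forms the pericyte potassium channel with Abcc9, gave 1 UMI in all. The mural label is thus borne by smooth muscle genes, with the pericyte channel genes at or near 0.

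Over all brains Rgs5 gave the most UMIs of the pericyte list, though not in each brain. Rgs4, a relative of Rgs5, gave 16, 23, 10 and 18 UMIs, and Vtn, which encodes the matrix protein vitronectin, gave 24, 5, 0 and 15. Higd1b, a mitochondrial protein gene used as a pericyte marker, gave 14, 11, 13 and 7 UMIs. Slc19a1, a folate carrier, gave 8, 6, 19 and 25 UMIs and Ndufa4l2, a mitochondrial protein gene, gave 23, 8, 8 and 18. Rgs4 thus exceeded Rgs5 in naive 2, and Slc19a1 exceeded it in metastasis 2, where the large clusters held Slc19a1 at 44.6 CPM and Rgs5 at 0.174 CPM. Pdgfrb, the receptor that holds pericytes on vessels, gave 5, 2, 5 and 9 UMIs, and Cspg4, the NG2 proteoglycan of mural cells, gave 6, 2, 5 and 1. Notch3, shared by both kinds, gave 9, 4, 7 and 15. Each of these genes other than Rgs5 gave at most 25 UMIs in any brain.

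Most single members also held more smooth muscle than pericyte UMIs. With cells thinned to 500 UMIs, 47 of 48 members of naive 1 (97.9%, exact 95% binomial interval 88.9% to 99.9%) held more smooth muscle than pericyte UMIs, as did all 27 of naive 2 (87.2% to 100%). The count was 26 of 27 in metastasis 1 (96.3%, 81.0% to 99.9%) and 30 of 37 in metastasis 2 (81.1%, 64.8% to 92.0%). These intervals cover counting error only. Of the other 7 cells of metastasis 2, 6 were tied and 1 held more pericyte UMIs. Many cells lay near the cut after thinning, with 0, 0, 5 and 12 members within 1 UMI of it. Without thinning the counts were 46 of 48, 27 of 27, 27 of 27 and 37 of 37, so the mean share was lower by 10.3 percentage points with metastases when thinned and higher by 2.08 points when not. Members with no pericyte UMI after thinning numbered 14, 3, 20 and 25.

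A single cell carried much of the pericyte signal of metastasis 1. It held 2413 UMIs, of which 41 were of the pericyte list and 73 of the smooth muscle list. It supplied 28 of that brain's 34 Rgs5 UMIs and 7 of its 13 Higd1b UMIs, and it was picked out after the values had been seen. Without it the pericyte list of metastasis 1 stood at 342 in place of 493 CPM, and at 3.46 in place of 4.85 UMIs per cell. The ratio of smooth muscle to pericyte UMIs was then 20.2 in place of 14.4, above those of the other brains. Among members under 4000 UMIs it was 19 in place of 5.16.

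**Figure D2:**
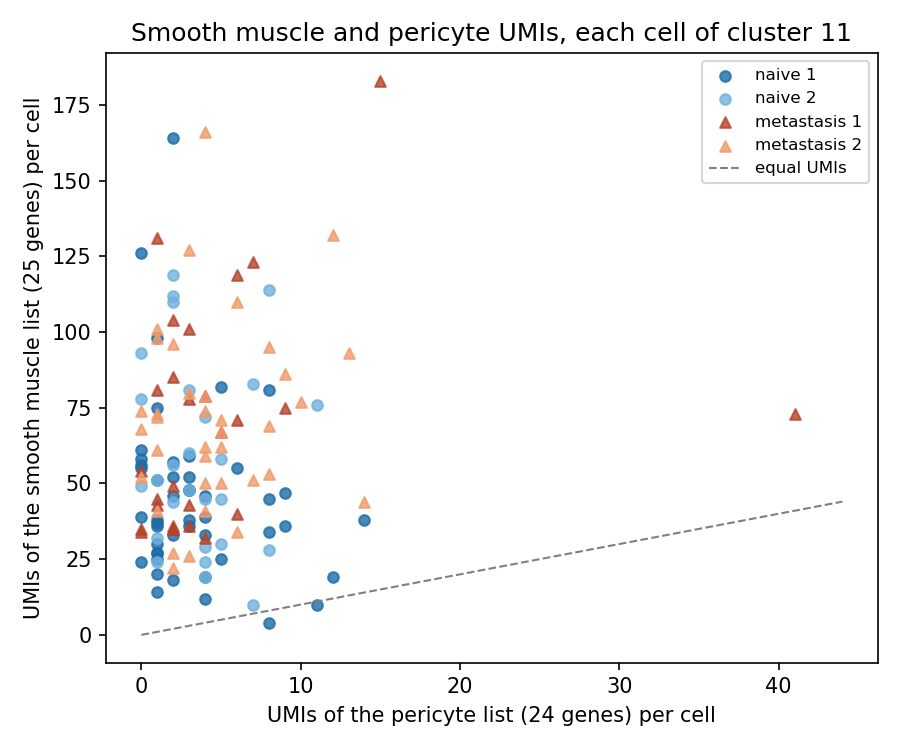
Each point is 1 member of cluster 11, coloured by brain. The x axis is its UMIs of the 24 pericyte genes and the y axis its UMIs of the 25 smooth muscle genes. Nearly all cells lie above the line of equal UMIs, and the cell of metastasis 1 with 41 pericyte UMIs stands apart on the right.

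The share of mural members among all cells was lower with metastases. Members were 8.39% of naive 1 (exact 95% interval 6.25% to 11%), 8.57% of naive 2 (5.72% to 12.2%), 0.504% of metastasis 1 (0.332% to 0.732%) and 0.599% of metastasis 2 (0.422% to 0.825%). The groups do not overlap, with means of 8.48% ± 0.127 and 0.552% ± 0.0676 (SD, n = 2 each). The ratio was 0.0650, and the exact two-sided permutation p was 0.333, the smallest that 2 brains against 2 can give. The 5 large clusters filled 73.6% and 70.6% of the cells with metastases, against 13.8% and 7.30% in naive brains. Outside those clusters members were 9.74%, 9.25%, 1.91% and 2.04% of cells, a ratio of 0.208, and outside clusters 0 to 4 they were 9.74%, 9.28%, 2.85% and 3.59%, a ratio of 0.338. Among all cells under 4000 UMIs they were 10.1%, 10.4%, 0.369% and 0.352%, a ratio of 0.0351.

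Against endothelial-like cells the shares overlapped. Members were 23.6% (18.0% to 30.1%), 21.6% (14.7% to 29.8%), 14.8% (10.0% to 20.8%) and 22.8% (16.6% to 30.1%) of the cells of clusters 11 and 6 together. Metastasis 2 lay between the naive brains and metastasis 1 below all others. The ratio of means was 0.833, with an exact permutation p of 0.667, and it was 1.01 without metastasis 1. With cells under 4000 UMIs only, in both clusters, the shares were 23.5%, 22.1%, 4.41% and 6.93%, a ratio of 0.249 at the smallest possible exact p of 0.333. The denominator and the depth of the cells counted therefore set whether the share was lower.

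Mural genes were lower as a fraction of RNA with metastases, while the differences in their UMIs per cell mostly did not pass the test. Acta2 stood at 5632 CPM in naive 1, 11572 in naive 2, 1111 in metastasis 1 and 899 in metastasis 2. The groups do not overlap, and the log2 difference was −3.16 (SE 0.33, edgeR adjusted p = 1.59e-07). Per cell Acta2 gave 6.54, 11.1, 10.9 and 10.4 UMIs, with overlapping groups and a log2 difference of 0.28 (approximate 95% interval −0.40 to 0.96, edgeR adjusted p = 0.435). In members under 4000 UMIs it stood at 7434, 11572, 5794 and 9359 CPM, again overlapping, with a log2 difference of −0.28 (SE 0.32, edgeR adjusted p = 0.894).

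Tagln and Myl9 were, like Acta2, lower as CPM and not past the test per cell. Tagln stood at 6654, 11726, 1081 and 869 CPM (log2 difference −3.31, SE 0.32, edgeR adjusted p = 4.40e-08) and at 7.73, 11.3, 10.6 and 10.1 UMIs per cell (0.13, interval −0.56 to 0.81). Myl9 stood at 4556, 7997, 682 and 571 CPM (−3.39, SE 0.30, edgeR adjusted p = 1.83e-08) and at 5.29, 7.70, 6.70 and 6.62 UMIs per cell (0.04, interval −0.60 to 0.69). In both genes the naive levels lay above those with metastases as CPM and overlapped with them per cell. In members under 4000 UMIs Tagln stood at 8920, 11726, 7623 and 6265 CPM and Myl9 at 6069, 7997, 5489 and 2475. Unlike Acta2, both genes had the naive brains above the others there, with log2 differences of −0.59 and −0.91 that did not pass the test (edgeR adjusted p = 0.448 and 0.353).

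Myh11 and Rgs5 rest on fewer UMIs. Myh11 stood at 520, 1230, 173 and 60.6 CPM, a log2 difference of −2.94 (SE 0.43, edgeR adjusted p = 1.94e-05), and at 0.604, 1.19, 1.70 and 0.703 UMIs per cell, a difference of 0.45 (interval −0.34 to 1.24). Rgs5 stood at 717, 807, 128 and 51.2 CPM, a log2 difference of −3.26 (SE 0.38, edgeR adjusted p = 8.97e-07), and at 0.833, 0.778, 1.26 and 0.595 UMIs per cell, a difference of 0.15 (interval −0.67 to 0.97). Per cell both genes overlapped between the conditions. Among members under 4000 UMIs Myh11 stood at 682, 1230, 1220 and 387 CPM, overlapping, with a log2 difference of −0.42 (SE 0.56, edgeR adjusted p = 0.928). In members under 4000 UMIs Rgs5 stood at 951, 807, 4421 and 155 CPM (log2 difference 1.08, SE 0.80, edgeR adjusted p = 0.707). The high value of metastasis 1 was 241 CPM without the pericyte-rich cell.

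**Figure D3:**
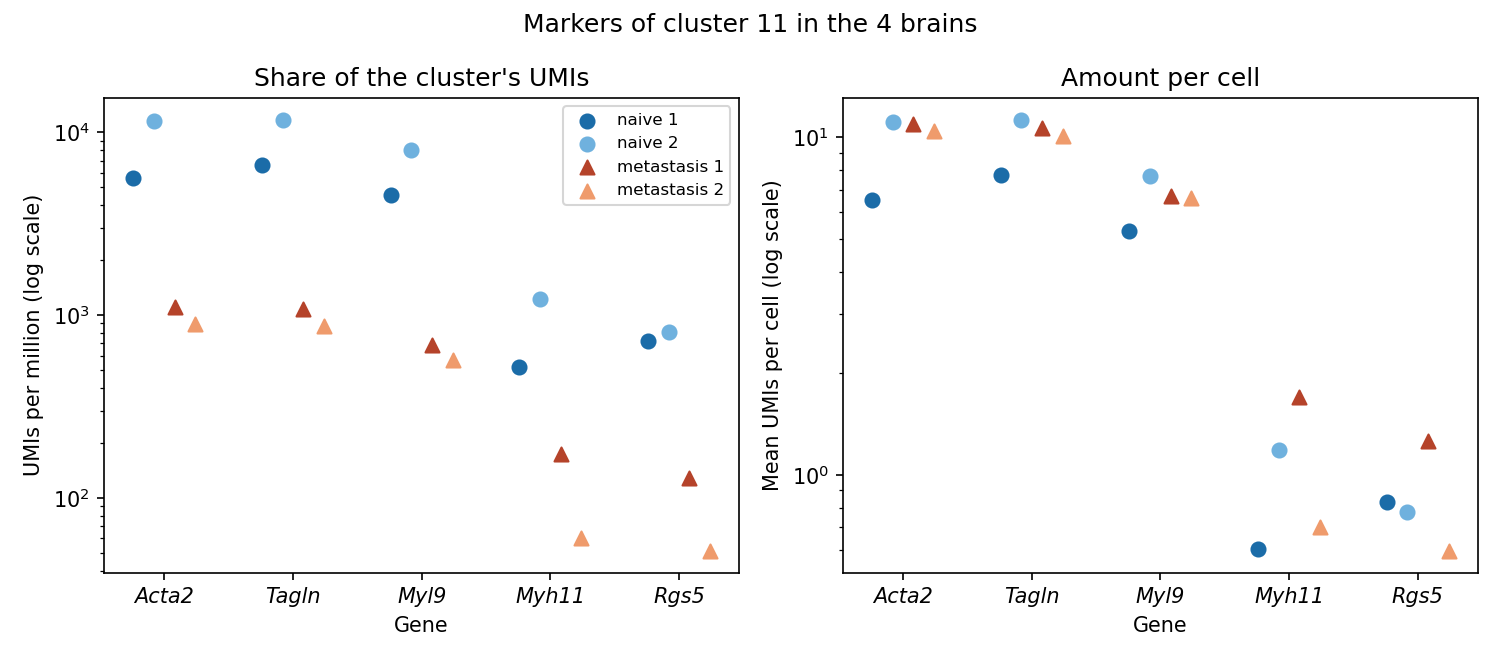
The left panel plots CPM and the right panel UMIs per cell, both on log axes, for the 5 markers in the members of each of the 4 brains (1 point per brain). On the CPM scale all 5 markers are lower in both brains with metastases, for example Acta2 at 1111 and 899 against 5632 and 11572, while per cell the brains overlap.

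A CPM falls both when a droplet holds less mural RNA and when it holds more RNA of other kinds, and CPM alone cannot tell these apart. Over all genes the scales differ strongly. Of the 2620 genes tested as CPM sums, 100 (3.82%) were higher and 322 (12.3%) lower with metastases, with a median log2 difference of 0.13. By UMIs per cell, 2449 (93.5%) were higher and 3 (0.115%) lower, with a median of 3.50. In members under 4000 UMIs 295 genes could be tested and edgeR called 0 (0%) higher and 0 (0%) lower, with 13 and 20 at an unadjusted p under 0.05. The calls as CPM were not stable when 1 brain was left out, which leaves the other brain alone in its group. No named gene tested in those fits changed sign. All 100 higher and 321 of the 322 lower genes had conditions that did not overlap in CPM, as did 63.5% of all genes tested.

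On the smooth muscle list, 21 of 25 genes passed the filter on low counts. Of these 0 were called higher and 19 lower as CPM, with a median log2 difference of −3.03 against 0.13 over all genes. Per cell 6 were called higher (Tpm1, Smtn, Cald1, Flna, Csrp1 and Cnn2) and 0 lower, where 93.5% of all genes were called higher. The median of the list per cell was 0.38 against 3.50 over all genes. Among members under 4000 UMIs 17 could be tested, 0 were called and the median was −0.42 against −0.04. The summed list stood at 38976, 61130, 7109 and 6157 CPM, at 45.3, 58.9, 69.9 and 71.4 UMIs per cell, and at 51621, 61130, 40098 and 35270 CPM in members under 4000 UMIs. The naive brains were thus higher in both CPM views and lower per cell.

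Some genes of the list passed the test in opposite directions on the 2 scales. Cald1, an actin- and calmodulin-binding protein, stood at 2224, 2422, 682 and 599 CPM and at 2.58, 2.33, 6.70 and 6.95 UMIs per cell. It fell as CPM (log2 −1.95) and rose per cell (1.47, SE 0.33, edgeR adjusted p = 8.36e-06). Tpm1, a tropomyosin, behaved likewise at 1.90, 2.15, 5.93 and 5.51 UMIs per cell (−1.90 as CPM and 1.505 per cell). Flna, which encodes the actin cross-linker filamin A, gave 0.458, 0.778, 2.33 and 3.08 UMIs per cell (−1.20 as CPM and 2.20 per cell). In the large clusters with metastases Cald1 stood at 366 and 376 CPM and Tpm1 at 279 and 272, against 2.03 and 1.29 for Tagln. Flna stood there at 136 and 158 CPM. Crip1, a LIM-domain protein of contractile cells, gave 10.6, 10.4, 10.6 and 10.9 UMIs per cell, with log2 differences of −3.39 as CPM and 0.04 per cell, and stood at 226 and 406 CPM in the large clusters. Tpm2 and Mylk, a second tropomyosin and the myosin light chain kinase, fell as CPM (−2.99 and −3.24) and did not pass per cell (0.44 and 0.17), and they stood at 134 and 138 CPM (Tpm2) and 15.6 and 15.8 CPM (Mylk) in the large clusters. Crip1, Tpm2 and Mylk had −1.08, −1.13 and −1.12 in members under 4000 UMIs, none past the test (edgeR adjusted p = 0.0879, 0.255 and 0.362).

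On the pericyte list, 9 of 24 genes passed the filter, and of these 0 were called higher and 8 lower as CPM, with a median of −3.37. The shares over all genes were 3.82% higher and 12.3% lower. The filter asks for a minimum CPM in 2 brains, which takes fewer UMIs in the shallower naive sums. All 9 genes reached it through the naive brains, while Ano1, with 1, 2, 7 and 15 UMIs, did not pass. The direction of these counts is therefore partly set by the filter. Per cell 2 were higher (Gper1 and Slc19a1) and 0 lower, with a median of 0.00, where 93.5% of all genes were higher. With metastases Slc19a1 stood at 71.6 and 58.2 CPM in the members and at 39.1 and 44.6 CPM in the large clusters. Gper1 stood at 33.9 and 23.3 CPM in those members and at 4.82 and 5.95 CPM in the large clusters. Rgs4 had log2 differences of −3.72 as CPM and −0.33 per cell, Vtn of −4.10 and −0.70, and Higd1b of −3.48 and −0.09, where only the CPM values passed. Pdgfrb fell as CPM (−2.15, SE 0.59, edgeR adjusted p = 0.0265) and had 1.20 per cell (edgeR adjusted p = 0.0608). The summed list stood at 2960, 3768, 493 and 396 CPM, at 3.44, 3.63, 4.85 and 4.59 UMIs per cell, and at 3875, 3768, 7776 and 2011 CPM in members under 4000 UMIs. The CPM difference of the summed list, −2.92, equalled that of the smooth muscle list to 2 decimals.

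**Figure D4:**
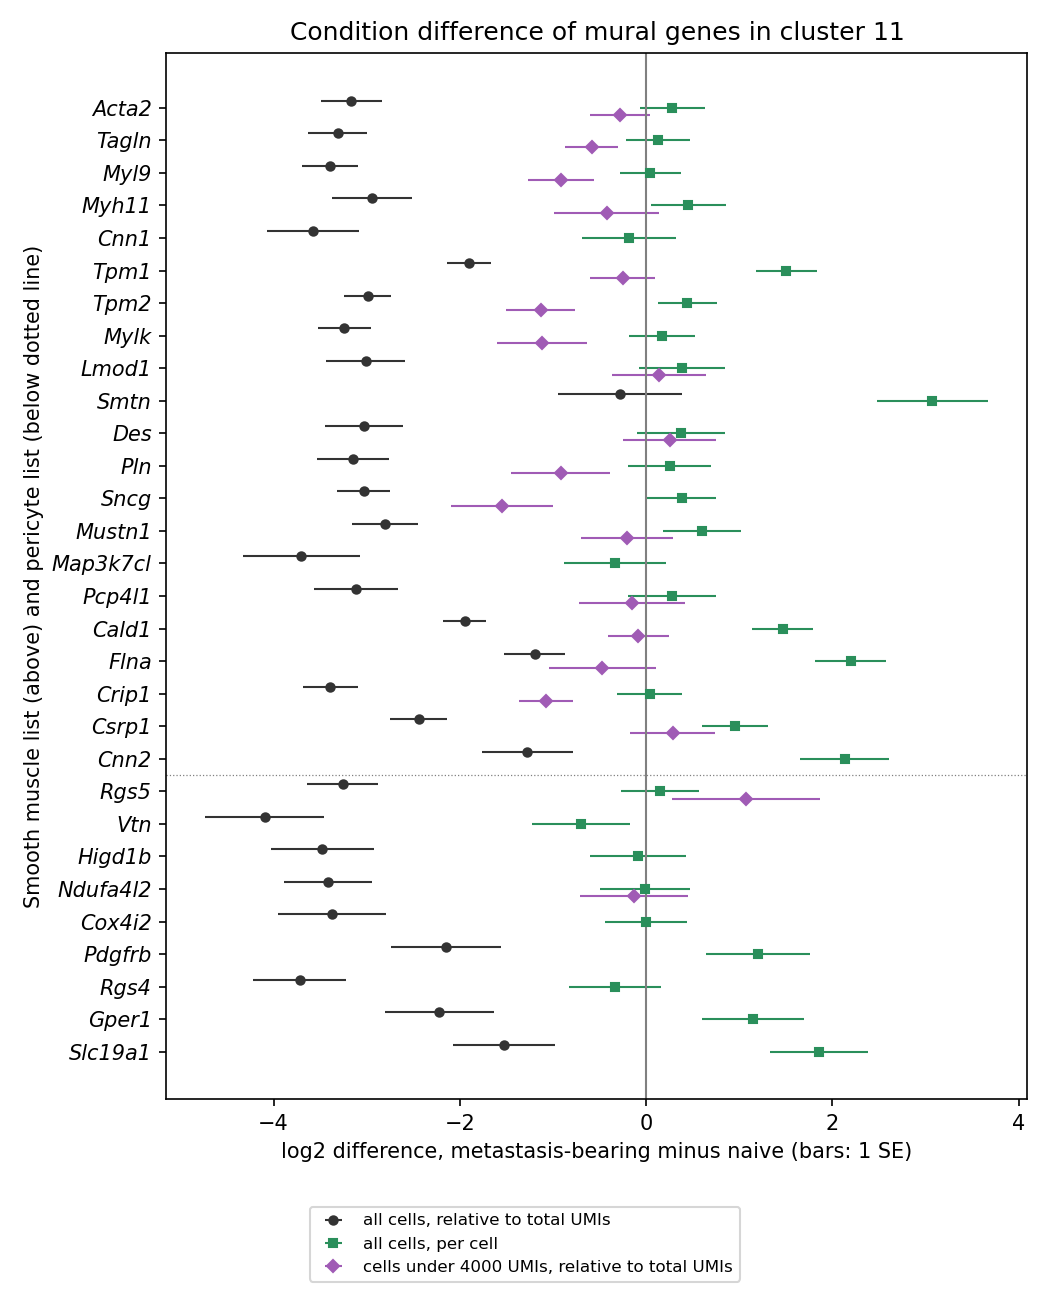
Each row is a gene of the smooth muscle list (above the dotted line) or the pericyte list (below it) that could be fitted, and the x axis is the log2 difference, metastasis-bearing minus naive, with bars of 1 SE. Markers separate the fit on CPM, the fit on UMIs per cell and the fit on members under 4000 UMIs: Acta2 lies at −3.16, 0.28 and −0.28, and every fitted gene lies below 0 on the CPM scale, while several lie above 0 per cell, such as Flna at 2.20.

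Genes shared by both mural kinds gave a similar picture, with 11 of 16 genes tested. All 11 were lower as CPM (0 higher, median −2.94), while per cell 4 were higher and 1 lower (median 0.45). Of all genes, 3.82% were higher and 12.3% lower as CPM, and 93.5% were higher and 0.115% lower per cell. Most of the 11 passed the filter through the naive brains, so their direction as CPM is partly set by it. The gene lower on both scales was Aspn, which encodes the matrix proteoglycan asporin. It gave 24, 15, 3 and 11 UMIs, or 0.500, 0.556, 0.111 and 0.297 per cell, with both naive brains above both others. Its log2 differences were −4.65 as CPM, −1.26 per cell (SE 0.53, edgeR adjusted p = 0.0181) and −3.33 in members under 4000 UMIs (SE 0.86, edgeR adjusted p = 0.0838). Besides Aspn, the genes lower per cell were Pde3a and Zic1. Pde3a, a phosphodiesterase that breaks down cyclic AMP in vascular smooth muscle, gave 0.417, 0.481, 0.259 and 0.135 UMIs per cell (log2 −1.21, edgeR adjusted p = 0.0282). Zic1, a transcription factor named here after its values were seen, gave 9, 4, 2 and 1 UMIs (−1.80, edgeR adjusted p = 0.0237). With 93.5% of all genes called higher per cell, the adjustment raised these p-values little. At an unadjusted edgeR p under 0.05, 3 genes were lower as well, so these calls are close to calls without adjustment. The call of these 3 genes per cell was not stable: without metastasis 1 there were 0 genes lower per cell, and without naive 2 or metastasis 2 there was 1.

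Genes that set vessel tone were mostly lower as CPM, and per cell 1 was called in each direction. Of 26 such genes 8 were tested, and 0 were called higher and 7 lower as CPM (median −3.49). The shares over all genes were 3.82% higher and 12.3% lower, and the filter limit given for the pericyte list holds here too. Per cell 1 was higher (Rhob) and 1 lower (Pde3a), with a median of −0.09, where 93.5% of all genes were higher. Gucy1a1 and Gucy1b1, the subunits of the nitric oxide receptor guanylate cyclase, had log2 differences of −3.16 and −3.74 as CPM, and 0.20 and −0.36 per cell, which did not pass. Pde5a, the phosphodiesterase of cyclic GMP, had −4.12 as CPM and −0.76 per cell, the latter not past the test.

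Basement membrane and matrix genes were mostly lower as CPM, and several were higher per cell. Of 25 genes 13 were tested, with 0 higher and 10 lower as CPM (median −2.49), against 6 higher and 0 lower per cell (median 0.86). The shares over all genes were 3.82% higher and 12.3% lower as CPM, and 93.5% higher per cell, with a per-cell median of 3.50. Sparc, a collagen-binding matrix protein, stood at 717, 807, 403 and 529 CPM (log2 −0.77, edgeR adjusted p = 0.0488) and at 0.833, 0.778, 3.96 and 6.14 UMIs per cell (2.64). It stood at 394 and 516 CPM in the large clusters. Igfbp7, an insulin-like growth factor binding protein of vessel walls, stood at 3300, 3768, 509 and 445 CPM (−2.98) and at 3.83, 3.63, 5 and 5.16 UMIs per cell (0.44, not past the test). Among members under 4000 UMIs Igfbp7 was at 4338, 3768, 7776 and 6497 CPM, with the conditions not overlapping in the opposite direction (0.79, edgeR adjusted p = 0.283).

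Signalling genes of the PDGF, TGF-beta, Notch and angiopoietin pathways numbered 27, of which 10 were tested. As CPM 0 were higher and 6 lower (Pdgfrb, Notch3, Jag1, Hes1, Id1 and Id3, median −2.05), where 3.82% of all genes were higher and 12.3% lower. Per cell 6 were higher and 0 lower (median 1.34), where 93.5% of all genes were higher (median 3.50). Notch3 had a log2 difference of −2.41 as CPM (edgeR adjusted p = 0.00302) and 0.97 per cell (0.0765). Of the 14 genes of the serum response factor axis found in the table, 4 were tested and 3 were lower as CPM (Mef2c, Csrp1 and Csrp2). Csrp1, a LIM protein of the contractile programme, had −2.44 as CPM and 0.96 per cell, passing in both directions.

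Immediate early and dissociation genes, which respond within minutes to tissue handling, were lower as CPM in 17 of 23 genes tested and higher in 0 (median −1.73). Per cell 18 were higher and 0 lower (median 1.65). Over all genes 3.82% were higher and 12.3% lower as CPM, and 93.5% were higher per cell, with a per-cell median of 3.50. Fos stood at 1812, 3922, 347 and 268 CPM (log2 −3.25) and at 2.10, 3.78, 3.41 and 3.11 UMIs per cell (0.17, not past the test), with −0.35 in members under 4000 UMIs (edgeR adjusted p = 0.894). The naive brains had medians of 5.05% and 5.32% mitochondrial UMIs per member, against 1.58% and 1.33% with metastases. In members under 4000 UMIs the medians were 5.20%, 5.32%, 6.71% and 4.89%, so the conditions overlapped there. With members of every depth, all 11 mitochondrial genes tested were lower as CPM (median −1.95). Of 86 ribosomal protein genes 18 were higher and 1 lower (median 0.66).

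Inflammatory gene groups showed few calls as CPM, where 3.82% of all genes were called higher and 12.3% lower. Of 6 interferon-induced genes tested, 0 were higher and 1 lower (Ifitm2, log2 −1.02). Of 7 genes of MHC class I presentation 1 was higher and 0 lower: H2-D1, a class I heavy chain, stood at 628, 500, 979 and 1279 CPM (0.86, SE 0.27, edgeR adjusted p = 0.0329), with a difference of 0.86 in members under 4000 UMIs that did not pass (SE 0.44, edgeR adjusted p = 0.453), and at 1426 and 1739 CPM in the large clusters. Of 3 chemokine, cytokine and adhesion genes 0 were called. Of 10 glycolysis and hypoxia genes 2 were higher (Gapdh, 1.31, and Ldha, 0.79), and of 12 cell cycle genes 0 were called. Per cell all the tested genes of these 5 groups were called higher, as were 93.5% of all genes. Gapdh and Ldha had the opposite sign in members under 4000 UMIs (−0.72 and −0.37), and neither passed.

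The 12 higher genes with the smallest p as CPM were Ybx3, Arpc1b, Lgals3, Ppp1r14b, Krt8, Hist1h2ap, Gapdh, Npm3, Rack1, Ran, Eif5a and S100a10. Krt8, a keratin of epithelial cells, stood at 143, 38.4, 445 and 664 CPM (log2 2.26, SE 0.45, edgeR adjusted p = 0.00079). Ybx3, an RNA-binding cold shock protein, stood at 179, 154, 900 and 943 CPM (2.33), and Lgals3, the lectin galectin 3, at 664, 500, 1582 and 2008 CPM (1.48). In members under 4000 UMIs Krt8 stood at 146, 38.4, 152 and 155 CPM, Ybx3 at 24.4, 154, 152 and 464 and Lgals3 at 561, 500, 152 and 309, where the edgeR filter left all 3 untested. The large clusters with metastases held Ybx3 at 851 and 873 CPM and Lgals3 at 1872 and 2482. All 12 genes were higher in the large clusters of both brains with metastases than in the naive members, and all 12 lower genes with the smallest p were lower there. Both sets were picked by p from these same members, and the share over all genes tested was not counted. The match is therefore a description and no separate test. Those lower genes were Myl9, Crip1, Tpm2, Mylk, Sparcl1, Tmsb4x, Igfbp7, Cd81, Xist, Fos, Fxyd1 and Ttr.

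The whole profile of the members was set beside the large clusters as a description. Over 1478 genes the log2 CPM of the members in metastasis 1 and 2 correlated with the naive members at r = 0.73 and 0.72, and with the large clusters at 0.94 and 0.95. The values in members under 4000 UMIs were 0.66 and 0.71 with the naive members, and 0.37 and 0.52 with the large clusters. Their sums held 6559 and 12929 UMIs, against 265453 and 429285 for all members. Fewer UMIs by themselves lower such an r, and the part of this in the lower values was not tested. These correlations are across genes, which are not independent replicates, and they share depth and pool. Members without any carcinoma-marker UMI numbered 36, 23, 4 and 6. In them 230 genes were tested and edgeR called 3 higher (Psmc3, Thbs1 and mt-Co1, log2 3.00, 2.69 and 1.25) and 0 lower, and the smooth muscle list differed by −0.35 as CPM.

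Markers of other brain cell types were also counted in the members. Endothelial markers stood at 395, 461, 316 and 270 CPM in the members, fibroblast markers at 341, 154, 154 and 90.8, and microglia markers at 35.9, 192, 11.3 and 32.6. Of these the endothelial genes Pecam1, Slco1c1 and Tek, the fibroblast genes Dcn, Lum and Col1a1 and the microglia genes P2ry12, Sall1 and Trem2 were at 0 in all brains. Choroid plexus markers, almost all from Ttr, stood at 3767, 3076, 542 and 648 CPM, in naive 1 above the summed pericyte list (2960 CPM). Ttr, the transthyretin gene and the most abundant choroid plexus message, stood at 3659, 3076, 527 and 624 CPM and at 4.25, 2.96, 5.19 and 7.24 UMIs per cell. The other choroid plexus markers Folr1, Clic6, Kcnj13 and Sostdc1 were at 0 in all brains. The part of RNA from these cell types in the differences was not tested.

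The condition difference of the members was also compared with that of the endothelial-like cells of cluster 6, as an interaction with the brain as a block. Of 4221 genes tested, 4 (0.0948%) had a higher and 89 (2.11%) a lower condition difference in cluster 11. Of 21 smooth muscle genes tested 10 were lower (0 higher, median −1.93), of 12 pericyte genes 2 (Ndufa4l2 and Vtn, median −2.07) and of 15 shared genes 6 (median −2.11), against a median of 0.04 over all genes. Acta2 differed by −3.46 (SE 0.49, edgeR adjusted p = 5.54e-10), and in cluster 6 itself it had 0.69 (not past the test). Cluster 6 held few UMIs of Acta2, at 11, 11, 17 and 101, or 72.4, 100, 38.6 and 238 CPM. There metastasis 1 lay below both naive brains and metastasis 2 above them. Rgs5 differed by −1.32, which did not pass, and it fell in cluster 6 too (−1.83, edgeR adjusted p = 0.0232). The 4 genes with a higher difference, named after their values were seen, were Klf2, Slc2a1, Ube2j2 and Ramp2. Klf2, a flow-responsive transcription factor of endothelium, differed by 1.49 (SE 0.41). Slc2a1, the glucose transporter of brain endothelium, gave 1, 0, 18 and 26 UMIs in cluster 11, and Ube2j2, a ubiquitin-conjugating enzyme, gave 1, 0, 60 and 64. Ramp2, a receptor-activity modifier of endothelium, gave 0, 0, 15 and 17 UMIs there and 88, 51, 100 and 123 in cluster 6, so no fold is given for it. With cluster 11 limited to members under 4000 UMIs, 1957 genes were tested and 1 was higher and 1 lower. Without metastasis 2 the counts were 0 and 3, and without metastasis 1 they were 1 and 37. The number higher was 121 without naive 1.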

How the data were processed

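RNA and antibody tags were read from 1 pool of 4 hashed brain suspensions with the 10x 3' v2 assay. Per the deposited tables, the authors' RNA values are whole-number UMI counts of each gene in each cell, and the antibody values are likewise tag counts, neither normalised, and the deposited per-cell table gives the percent of mitochondrial UMIs, the hashing margin (a score of how clearly 1 tag leads), the hashing call and other labels such as the cluster number. The submitters' processing notes name Cell Ranger 3.0.2, Seurat 3.0.1 and build mm10, with settings not given in the sources used here. All 12421 cells had a single-brain call and at least 500 UMIs, and none was left out. Cluster numbers came without names, so the mural name rests on markers. The members and gene lists were chosen with earlier results of these data known.

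UMI counts of cluster 11 were summed per brain and fitted with edgeR 4.0.16 (R 4.3.3, TMM, filterByExpr, quasi-likelihood test, Benjamini-Hochberg threshold 0.05 over all genes tested). The fit per cell used the number of cells as offset and was added after the depth gap had been seen, as was the limit of 4000 UMIs. DESeq2 1.42.0 was an alternative. The fits were tested on simulated data. Genes named are the 5 markers, up to 12 of each mural list by mean CPM, fixed-list genes that passed, and the 12 with the smallest p in each direction without overlap. Clec7a and Ifi30 are not reported here.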

Additional observations from a re-analysis of the deposited data

Results flagged for a closer look

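The results below were singled out because the condition difference of the cluster 11 members differed from that of the endothelial-like cells of cluster 6 by the interaction test of edgeR (adjusted p under 0.05). In all 4 genes had a higher and 89 a lower difference in cluster 11. All values are log2 differences of CPM, cluster 11 minus cluster 6, and all are negative. Beside them, carcinoma markers summed to 9.04 and 11.3 UMIs per member with metastases and to 0.5 and 0.148 in naive brains, and their part was not tested.

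Among contractile genes the values were −3.46 for Acta2, −3.78 for Tagln, −2.51 for Myl9, −2.74 for Crip1, −3.19 for Tpm2, −1.74 for Cald1 and −1.78 for Tpm1. They were −1.93 for Mylk, −1.93 for Csrp1, −2.84 for Sncg and −3.32 for Csrp2. Cluster 6 itself held few UMIs of Acta2 (11, 11, 17 and 101) and Tagln (9, 10, 16 and 97), most of them in metastasis 2. Pericyte and shared mural genes had −2.75 (Ndufa4l2), −2.41 (Vtn), −1.94 (Sparcl1), −1.87 (Ebf1), −2.11 (Nr2f2), −2.59 (Gja4) and −3.15 (Ifitm1). Matrix genes had −2.43 (Bgn), −1.36 (Mfge8) and −2.995 (Mgp).

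Immediate early and stress genes had −1.31 (Fos), −1.65 (Cebpb), −3.69 (Cebpd), −1.95 (Hspb1) and −1.63 (Socs3), and Id3, a target of TGF-beta family signals, had −1.60. Of the genes named for their small p, Tmsb4x had −2.92, Igfbp7 −2.95, Cd81 −2.59, Xist −2.65 and Fxyd1 −4.06.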

How the results depend on the processing

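The number of genes higher as CPM (100) was 195 with no scaling beyond total UMIs, 33 with DESeq2, 207 with no filter, 49 with at least 20 UMIs, 198 in cells with larger hashing margins, 24 in thinned cells, 3 in cells without a carcinoma-marker UMI, 0 in cells nearly free of other types' markers (up to 2 UMIs), 0 under 4000 UMIs and 253 without the deep naive cell. It ranged from 0 to 188 when each brain was left out. The number lower (322) was 212 with DESeq2, 206 with no filter, 62 in thinned cells, and 0 in cells without a carcinoma-marker UMI, in cells nearly free of other types' markers or under 4000 UMIs. It ranged from 0 to 204 with a brain left out. A brain left alone in its group was assumed to vary like the others. Per cell, 1033 to 4173 genes were higher and 0 to 2 lower with a brain left out. The cause of these changes was not tested.

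For the comparison with cluster 6, genes higher (4) numbered 7 with RLE factors, 0 without the brain in the model, 1 with at least 20 UMIs, 1 under 4000 UMIs and 0 to 121 with a brain left out. Genes lower (89) numbered 56 without the brain in the model, 58 with at least 20 UMIs, 1 under 4000 UMIs and 3 to 66 with a brain left out.

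The share ratio among all cells (0.0650) was 0.338 outside clusters 0 to 4, 0.208 outside the large clusters and 0.0351 under 4000 UMIs. The share ratio against clusters 11 and 6 (0.833) was 1.12 in cells with larger hashing margins and 0.656 to 1.01 with a brain left out. The summed smooth muscle list in cluster 11 (−2.92 as log2 CPM) was −1.83 thinned, −1.91 as the mean of per-cell CPM, −0.35 without carcinoma-marker UMIs, −0.58 under 4000 UMIs, 0.44 per cell and −3.20 to −2.55 with a brain left out. The summed pericyte list in cluster 11 (−2.92) was −1.84, −1.98, −0.46, 0.36 and 0.42 in the same order and −3.09 to −2.73. The difference in the share of cluster 11 cells with more smooth muscle than pericyte UMIs (−10.3 points) was 2.08 unthinned, −18.8 with the first 10 genes of each list, 1.06 under 4000 UMIs and −17.9 to −2.66.

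Of 1452 values of 97 named genes over 18 alternatives, 1421 kept their sign and 31 turned, and none of the 31 passed the test. In cells without a carcinoma-marker UMI these were Acta2 0.095, Cald1 0.12, Csrp1 0.086, Gapdh −0.73, Tmsb4x 0.66, Igfbp7 0.88, Fos 0.17, Id3 0.10, Ldha −1.18, Mfge8 0.62, Mgp 0.28, Mustn1 0.39, Pcp4l1 0.23, Ppp1r15a 0.44 and Sparc 1.30. Under 4000 UMIs they were Rgs5 1.08, Csrp1 0.29, Gapdh −0.72, S100a10 −0.12, Tmsb4x 0.46, Igfbp7 0.79, Bgn 0.91, Des 0.25, Id3 0.015, Ldha −0.37, Lmod1 0.14, Mfge8 0.024, Mgp 0.96 and Sparc 0.78. In cells nearly free of other types' markers they were Acta2 0.68 and Tagln 0.094.

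No paired analysis was possible because the brains' numbers only name them and pair no naive brain with one bearing metastases. With 6 and 7 members under 4000 UMIs in the brains with metastases, genes of low counts could not be tested there.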
